A study of Mus musculus with 9 samples.

Results

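The genes described here are 31 mouse genes of glycolysis and of the response to low oxygen, taken as a fixed list of symbols and found in a table of 54491 gene rows from colon RNA sequencing. They are 2 plasma membrane transporters, 16 glycolytic enzymes, 3 enzymes that regulate the pathway and 10 genes known mainly from the hypoxia response. The list is one of names grouped by function and sets no threshold on measured values, but it was drawn up with earlier results of these data known. Each of the 31 genes passed the filter on low values, which asked for at least 0.5 FPKM in at least 3 libraries and left 17907 genes to test. FPKM, the deposited unit, is a fragment count normalised to the length of the transcript and the size of the library.

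The study compared the colon of C57BL/6 mice under 3 treatments. The label of the control group names no diet and no gavage, the HFD group received a high-fat diet, and the remaining group received the high-fat diet together with gavage, dosing through a tube into the stomach, of the gut bacterium Papillibacter cinnamivorans. Mice entered at 6 weeks of age in groups of 15, no genetic change is named for any of them, and the age given for each sample is postnatal day 98. The libraries analysed are control replicates 1, 2 and 3, HFD replicates 1, 2 and 4, and replicates 1, 3 and 4 of HFD with the bacterium. The labels mention a gavage only for the group given the bacterium, so an effect of the bacterium and one of the dosing itself cannot be told apart. Neither the segment of the colon nor whether libraries stem from different mice is stated, so p-values measure the spread between libraries.

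Glycolysis converts glucose into pyruvate in the cytosol, yielding ATP without oxygen, and lactate dehydrogenase then converts pyruvate into lactate, which monocarboxylate transporters carry out of the cell. When oxygen is scarce, prolyl hydroxylases stop marking the HIF alpha subunits for degradation, and the stabilised factor binds a short DNA motif near genes for glucose uptake, glycolysis, vessel growth and its own inhibitors. In the colon the luminal side of the epithelium is normally poor in oxygen, and colonocytes draw much of their energy from the oxidation of bacterial butyrate.

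Among the 31 genes, the lower level of Ndrg1 and Slc2a1 and the higher level of Egln3 in HFD were each opposed by a difference in the other direction in HFD with the bacterium against HFD, and these 6 differences passed the test. Ndrg1 encodes a cytoplasmic protein induced by hypoxia and differentiation, Slc2a1 the glucose transporter GLUT1, and Egln3 the HIF prolyl hydroxylase PHD3. Most glycolytic enzymes did not pass the test in any comparison, and Hif1a itself did not either. Both comparisons use the same 3 HFD libraries, so they are not independent of each other.

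**Figure D1:**
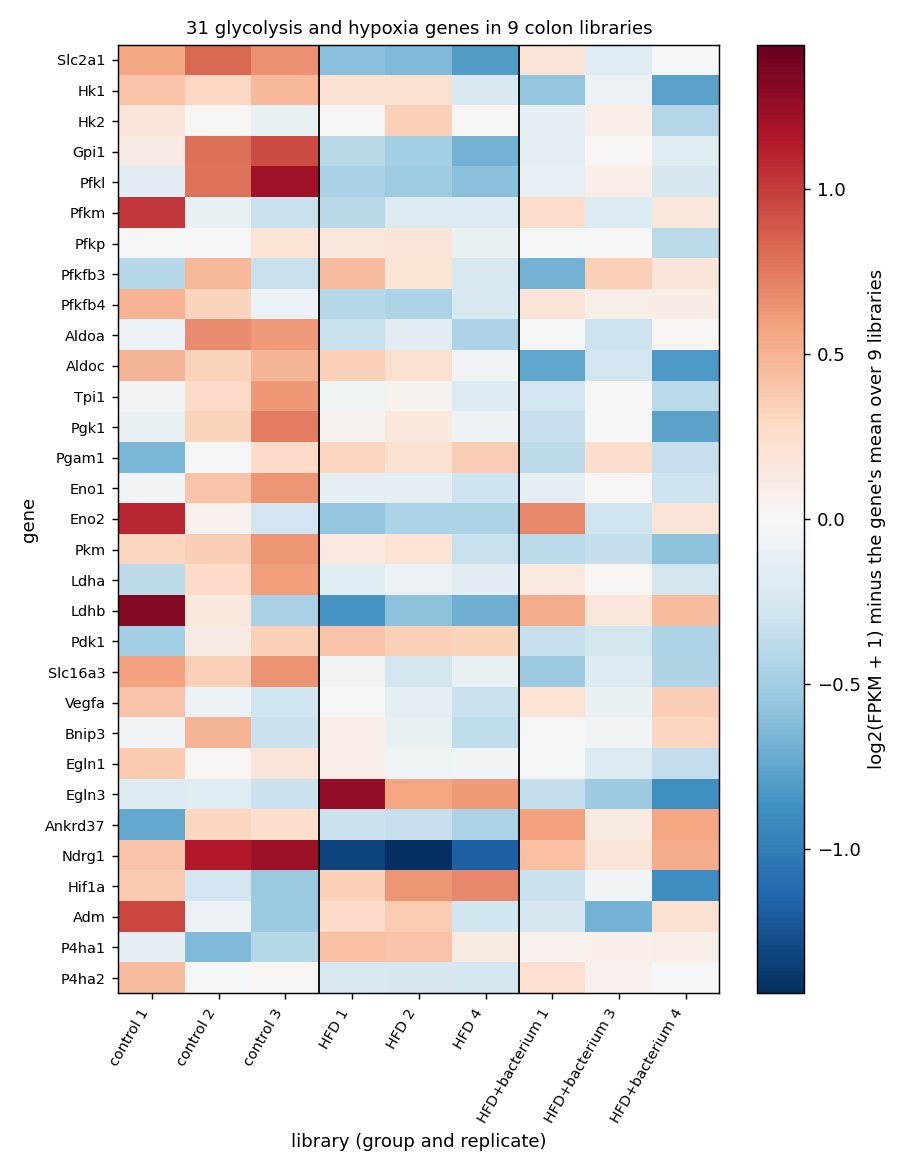
Level of the 31 genes (rows) in the 9 libraries (columns), as log2(FPKM + 1) minus the mean of that gene over the 9 libraries, with red above and blue below that mean. Ndrg1 and Slc2a1 are blue in the 3 HFD libraries and Egln3 is red there, and control replicate 1 differs from control replicates 2 and 3 in Ldhb, Eno2, Pfkm and Pfkl.

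The HIF motif was searched by the core letters ACGTG, which read CACGT on the opposite strand. The other form of the core, GCGTG, was not counted, and the motif below means ACGTG only. Both strands were searched in the 250 bases upstream of each RefSeq gene start (build GRCm38.p6, which is not the build of the alignment, so only the letters are used). The RefSeq promoter table held 30 of the 31 genes, all but Ndrg1. At least 1 window with the motif was found for 18 of these 30 genes, and 21 of their 44 windows held it (47.7%), as did 5444 of all 32851 windows in the table (16.6%). The genes were chosen for glycolysis and the hypoxia response, so their higher share says nothing about the treatments. Windows of a gene can overlap, and 2 Aldoa windows hold the same match. A CACGTG is counted on both strands, as 2 overlapping matches. The sequences below are those of the 4 genes that had the motif and passed the test in HFD against control, with the motif in capitals, and of Ldha, whose window held the most matches and whose level did not pass the test. They are shown because Slc2a1 and Slc16a3 were lower in HFD and Egln3 and P4ha1 higher. Slc2a1, at chr4:119108495-119108744 on the plus strand, has its match 36 bases upstream of the start. Slc16a3, at chr11:120948817-120949066 on the plus strand, has matches at 27 and 14 bases upstream. Egln3, at chr12:54203875-54204124 on the minus strand, has 1 match at 229 bases upstream, and P4ha1, at chr10:59323046-59323295 on the plus strand, has 1 at 16 bases upstream. Ldha, at chr7:46845554-46845803 on the plus strand, has 5 matches in 3 separate sites.
Slc2a1: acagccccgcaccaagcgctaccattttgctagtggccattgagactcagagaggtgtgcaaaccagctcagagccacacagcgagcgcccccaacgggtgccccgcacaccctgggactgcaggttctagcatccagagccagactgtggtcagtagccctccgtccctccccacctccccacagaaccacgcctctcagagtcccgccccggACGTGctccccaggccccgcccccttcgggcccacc
Slc16a3: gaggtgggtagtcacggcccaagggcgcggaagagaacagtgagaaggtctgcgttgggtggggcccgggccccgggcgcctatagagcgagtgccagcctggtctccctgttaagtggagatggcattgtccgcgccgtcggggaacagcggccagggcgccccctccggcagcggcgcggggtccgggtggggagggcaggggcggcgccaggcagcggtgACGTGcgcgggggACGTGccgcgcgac
Egln3: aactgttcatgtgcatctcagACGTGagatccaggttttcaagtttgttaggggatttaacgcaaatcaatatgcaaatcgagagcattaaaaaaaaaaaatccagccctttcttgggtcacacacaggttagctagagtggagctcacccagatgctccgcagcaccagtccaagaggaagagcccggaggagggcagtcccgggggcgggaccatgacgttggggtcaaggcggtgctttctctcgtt
P4ha1: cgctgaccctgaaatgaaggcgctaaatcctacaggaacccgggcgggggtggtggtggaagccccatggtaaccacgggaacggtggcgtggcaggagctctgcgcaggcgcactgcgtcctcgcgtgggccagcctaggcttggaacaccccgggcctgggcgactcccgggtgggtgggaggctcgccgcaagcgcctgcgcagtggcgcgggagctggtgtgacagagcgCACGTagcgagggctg
Ldha: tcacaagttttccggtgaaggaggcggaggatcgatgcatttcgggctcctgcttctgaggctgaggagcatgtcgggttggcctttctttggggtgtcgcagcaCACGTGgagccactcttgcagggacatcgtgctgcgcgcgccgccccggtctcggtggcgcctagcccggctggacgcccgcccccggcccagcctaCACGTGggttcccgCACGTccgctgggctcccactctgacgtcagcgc
Gpi1, Pfkl and Pfkfb4 passed the same test and have no match in their windows, which says only that these letters are absent from those bases. The windows of Pfkl and Pfkfb4 do hold the letters GCGTG, which were not counted.

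Total read numbers are unknown because FPKM carries none. Relative sequencing depth, read from the steps between low values, ran from 0.822 to 1.103 of that of control replicate 1. Mitochondrially encoded genes took 16.6% to 25.2% of summed FPKM in control, 9.69% to 13.5% in HFD and 21.6% to 34.8% in HFD with the bacterium, and immunoglobulin genes took 0.469% to 1.33%, 7.36% to 10.8% and 0.676% to 2.68%. Rescaling the values to TPM moved the median log2 difference of all tested genes in HFD against control to 0.22. Control replicate 1 stands apart from the other 8 libraries on the second principal component (15.3% of the variance, score 62.9 against -20.9 to 6.43). Its summed FPKM over 10 smooth muscle genes was 7122, against 1388 to 1950 in the other control libraries. Its sum over 12 colon epithelium genes was 5755, against 19168 and 26173. Most of that gap lies in Car1, at 603 FPKM in control replicate 1 against 13019 and 19172 in control replicates 2 and 3. The other epithelium genes went both ways, with Epcam lowest in control replicate 1 among the controls and Muc2 highest. Results with and without control replicate 1 are given below. The epithelial marker Epcam was present in each group, at 836 ± 231 FPKM in control, 641 ± 46.9 in HFD and 536 ± 106 in HFD with the bacterium.

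Values below are FPKM, as single libraries in the order of their replicate numbers or as mean ± SD (n = 3 libraries a group). Tests are limma on log2(FPKM + 1) over all 17907 genes with Benjamini-Hochberg adjustment, a gene is called at an adjusted p below 0.05, and log2 differences are on that scale, which understates changes of low genes. In bulk tissue, fewer cells of a type and less RNA per cell cannot be told apart.

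HFD against control compares the libraries labelled with the diet to those labelled control. These groups also differed in genes of position along the gut. Posterior Hox genes summed to 1.07 to 34.2 FPKM in control and 246 to 268 in HFD. The part of position in the differences below was not tested, so "fell" and "rose" describe groups of libraries. Of the 31 genes, 8 passed the test (25.8%), against 19.7% of all tested genes. The genes Slc2a1, Slc16a3, Gpi1, Pfkl, Pfkfb4 and Ndrg1 fell (6 genes, 19.4%, against 9.11% of all genes) and Egln3 and P4ha1 rose (2 genes, 6.45%, against 10.6%). In 15 of the 31 the HFD and control libraries did not overlap, with 13 lower and 2 higher in HFD, while 42.1% of all genes did not overlap, 20.1% lower and 21.9% higher. The log2 difference was below 0 for 22 of the 31 genes (50.1% of all genes), with a median of -0.31 over the list and -0.00 over all genes, and 14 of the 31 had an unadjusted p below 0.05 (34.7% of all genes). With TPM scaling the counts below 0 were 19 of 31, and the list's median was -0.05 beside 0.22 for all genes. The called genes of the list then split into 3 higher and 4 lower, beside 3291 higher and 916 lower of all 21123 genes tested. With mitochondrial and immunoglobulin genes taken out before rescaling, 4 of the list were higher and 4 lower. Of all 18586 genes tested in that setting, 3185 were higher and 976 lower.

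HFD with the bacterium against HFD compares the diet with and without the bacterium. It uses the same HFD libraries, and posterior Hox genes summed to 3.53 to 13.1 FPKM with the bacterium. The part of position was not tested in this comparison either. Here 5 of the 31 genes passed (16.1%), against 12.1% of all tested genes. Slc2a1 and Ndrg1 rose (6.45%, against 4.54% of all genes), and Egln3, Aldoc and Pdk1 fell (9.68%, against 7.60%). The libraries of the pair of groups did not overlap in 16 of the 31, with 10 higher and 6 lower (39.0% of all genes, 18.7% higher and 20.3% lower). The difference was below 0 for 16 of the 31 (51.6% of all genes), and 11 had an unadjusted p below 0.05 (26.8%). The list's median log2 difference was -0.15 and that of all genes -0.01, and with TPM scaling they were -0.35 and -0.18.

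HFD with the bacterium against control asks where the treated colon differed from that of control mice. Aldoc and Slc16a3 were called, both lower, which is 2 of 31 (6.45%) against 1.11% of all genes, and 0.843% of all genes were called lower. In limma no member was called higher, while 13 of the 31 had an unadjusted p below 0.05 in either direction (20.0% of all genes). Groups did not overlap for 9 of the 31, with 8 lower and P4ha1 higher (21.7% of all genes, 11.9% lower and 9.86% higher). The difference was below 0 for 25 of the 31 genes (51.4% of all genes), and for 17 of the 31 when mitochondrial and immunoglobulin genes were taken out. That scaling moved the median of all genes from -0.01 to 0.14 and the list's median from -0.33 to -0.13, so their distance went from -0.32 to -0.28. This comparison shares its libraries with both preceding ones.

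**Figure D2:**
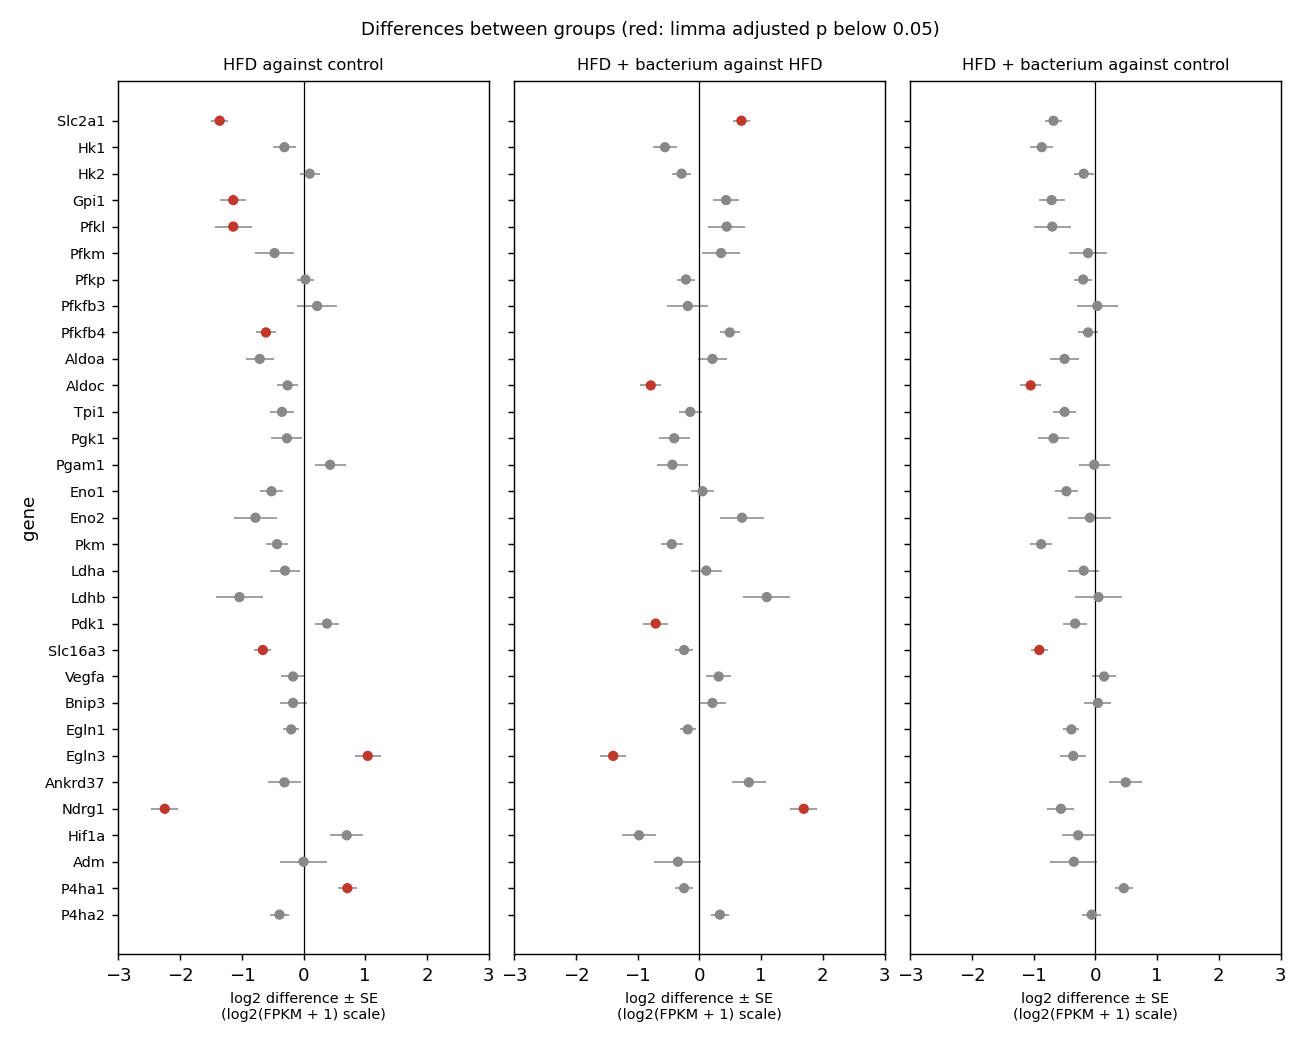
Log2 difference ± SE of the 31 genes in the 3 comparisons, on the log2(FPKM + 1) scale, with red points for a limma adjusted p below 0.05. Red points number 8 in HFD against control, 5 in HFD with the bacterium against HFD and 2 in HFD with the bacterium against control, and Ndrg1 has the longest distance from 0 in the first and second panels (-2.25 and 1.69).

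Of the transporters, Slc2a1 (GLUT1) takes up glucose in most cells. It measured 67.2, 81.0 and 72.0 FPKM in control, 29.4, 28.8 and 25.6 in HFD, and 51.8, 40.1 and 44.8 in HFD with the bacterium. The 3 groups did not overlap, with control highest, HFD lowest and the bacterium group between them. In HFD it was 2.63-fold lower than in control (a log2 difference of -1.36, SE 0.14, limma adjusted p = 0.00036), a call that held under each of 20 alternative settings. With the bacterium it was 1.63-fold higher than in HFD (0.68, SE 0.14, limma adjusted p = 0.012), a call lost without HFD replicate 2, HFD replicate 4 or replicate 1 of HFD with the bacterium (limma adjusted p from 0.0069 to 0.061 over the 20 settings). Against control, the bacterium group missed the threshold (-0.68, SE 0.14, limma adjusted p = 0.053) and passed it without control replicate 1 (-0.74, limma adjusted p = 0.028).

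Slc16a3 (MCT4), a monocarboxylate transporter suited to the export of lactate, stood at low levels. Its values were 3.41, 2.77 and 3.64 FPKM in control, 1.89, 1.46 and 1.75 in HFD, and 1.06, 1.59 and 1.19 in HFD with the bacterium. The control libraries were above both diet groups, which overlapped each other. It fell by 0.66 on the log2 scale in HFD (SE 0.14, limma adjusted p = 0.012) and was lower than control also with the bacterium (-0.91, SE 0.14, limma adjusted p = 0.037). The HFD call was lost with TPM scaling, with mitochondrial and immunoglobulin genes removed and without HFD replicate 2 (limma adjusted p from 0.0096 to 0.10 over 20 settings), and the call with the bacterium was lost in 12 of 20 settings (0.027 to 0.26).

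The hexokinases trap glucose as glucose 6-phosphate at the first step. Hk1, the broadly expressed form, measured 18.1, 16.7 and 19.0 FPKM in control, 15.8, 15.9 and 11.4 in HFD, and 8.68, 12.6 and 7.46 in HFD with the bacterium, and the last group was below every control library. Hk2, the form induced by insulin and by HIF, measured 18.6, 16.7 and 15.1, then 16.6, 21 and 16.6, then 14.7, 17.4 and 12, with the 3 groups overlapping. Neither gene was called, the smallest value being a limma adjusted p of 0.065 for Hk1 in HFD with the bacterium against control (log2 difference -0.87, SE 0.19).

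Gpi1, which interconverts glucose 6-phosphate and fructose 6-phosphate, measured 103, 165 and 183 FPKM in control, 72.1, 67.6 and 58.8 in HFD, and 86.4, 97.2 and 84.1 in HFD with the bacterium. The groups did not overlap, although control replicate 1 lay much nearer to the diet groups than the other control libraries did. It fell in HFD (-1.14, SE 0.21, limma adjusted p = 0.0072), a call that held under each of 20 settings, and was not called with the bacterium against HFD (0.43, SE 0.21, limma adjusted p = 0.24). Gpi1 has 1 near-identical pseudogene copy, so its level is uncertain to that extent.

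Phosphofructokinase commits the sugar to glycolysis, and its liver form Pfkl was the one that passed. Pfkl measured 11.8, 23.5 and 32.2 FPKM in control, 9.28, 8.98 and 8.41 in HFD, and 12.1, 14.2 and 11.0 in HFD with the bacterium. HFD libraries were below all others, and control libraries spread widely, with replicate 1 within the range of the bacterium group. Pfkl fell in HFD (-1.14, SE 0.30, limma adjusted p = 0.028), but the call was lost in 8 of 20 settings, among them the leaving out of control replicates 2 and 3 and HFD replicates 1, 2 and 4, each alone (0.00043 to 0.094). The muscle form Pfkm (2.81 to 9.17 FPKM over the 9 libraries, highest in control replicate 1) and the platelet form Pfkp (9.88 to 15.4 FPKM) were not called in any comparison.

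Fructose 2,6-bisphosphate, the allosteric activator of phosphofructokinase, is made and removed by the Pfkfb enzymes. Pfkfb4 measured 9.19, 7.97 and 5.79 FPKM in control, 4.40, 4.24 and 5.13 in HFD, and 7.18, 6.61 and 6.75 in HFD with the bacterium. HFD was below both other groups, which overlapped. It fell in HFD (-0.61, SE 0.16, limma adjusted p = 0.026) and was not called with the bacterium against HFD (0.49, SE 0.16, limma adjusted p = 0.077). The HFD call was lost in 8 of 20 settings (0.0076 to 0.18), among them TPM scaling and the leaving out of control replicate 2 or any HFD library. Pfkfb3, the form with the strongest kinase activity, ranged from 0.908 to 3.26 FPKM with all groups overlapping.

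Aldolase splits the phosphorylated sugar, and its forms differed in scale and pattern. Aldoa was the most abundant of the 31 genes by group mean in control, at 497 ± 132 FPKM, with 296 ± 30.2 in HFD and 343 ± 39.6 in HFD with the bacterium, and it was not called (HFD against control -0.71, SE 0.23, limma adjusted p = 0.057). Aldoc, the form known from brain, measured 5.12, 4.49 and 5.10 in control, 4.53, 4.10 and 3.24 in HFD, and 1.60, 2.59 and 1.46 in HFD with the bacterium. The bacterium group was below all 6 other libraries, while control and HFD overlapped. Aldoc fell with the bacterium against HFD (-0.79, SE 0.17, limma adjusted p = 0.017) and was lower than control (-1.05, SE 0.17, limma adjusted p = 0.037). The former call was lost without HFD replicate 1 or 2 or replicate 1 or 4 of HFD with the bacterium (0.0062 to 0.083), and the latter in 12 of 20 settings (0.029 to 0.26).

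The enzymes of the later steps of glycolysis were abundant and none was called. Tpi1, triose phosphate isomerase, ranged from 103 to 209 FPKM over the 9 libraries. Pgk1, phosphoglycerate kinase, which makes the first ATP of the pathway, ranged from 59.2 to 169, and Pgam1, phosphoglycerate mutase, from 32.4 to 66.3. Enolase Eno1 ranged from 84.0 to 162 and Eno2, the neuronal form, from 1.46 to 6.71, with its highest value in control replicate 1. Tpi1, Pgk1, Pgam1 and Eno1 have between 1 and 4 near-identical pseudogene copies each.

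Pkm, pyruvate kinase, measured 169, 174 and 212 FPKM in control, 150, 156 and 109 in HFD, and 104, 107 and 90.2 in HFD with the bacterium. Control was above both diet groups, and the bacterium group was below HFD in each library. No comparison was called, the nearest being HFD with the bacterium against control (-0.88, SE 0.18, limma adjusted p = 0.053), which passed without control replicate 1 (-0.94). Pkm has 1 near-identical pseudogene copy.

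Lactate dehydrogenase is a tetramer of A chains, which favour lactate formation, and B chains, which favour its use. Ldha measured 249, 392 and 492 FPKM in control, 287, 307 and 293 in HFD, and 359, 332 and 271 in HFD with the bacterium, with the 3 groups overlapping. Ldhb measured 41.3, 17.8 and 11.3 in control, 8.42, 10.3 and 9.46 in HFD, and 23.5, 18.0 and 22.2 in HFD with the bacterium. HFD libraries were below all others, and control replicate 1 was above all others. Ldhb was not called in HFD against control (-1.04, SE 0.38, limma adjusted p = 0.083) or with the bacterium against HFD (1.09, SE 0.38, limma adjusted p = 0.098). The former passed without control replicate 3 (-1.44, limma adjusted p = 0.02, range 0.02 to 0.20 over 20 settings). The latter passed without control replicate 1 or control replicate 3 and in the fit of only the 2 groups (limma adjusted p from 0.0022 to 0.25). Both genes have pseudogene copies, 3 for Ldha and 1 for Ldhb.

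Pdk1 phosphorylates pyruvate dehydrogenase and so holds pyruvate back from the mitochondrial citric acid cycle. It measured 6.01, 9.73 and 11.6 FPKM in control, 12.2, 11.6 and 11.4 in HFD, and 6.89, 7.25 and 6.31 in HFD with the bacterium. HFD lay above the bacterium group in each library, and control covered nearly the range of both. Pdk1 fell with the bacterium against HFD (-0.71, SE 0.20, limma adjusted p = 0.048), a call lost in 11 of 20 settings (0.0023 to 0.15), including the leaving out of control replicate 2 or of any library of the diet groups. It was not called in HFD against control (0.38, SE 0.20, limma adjusted p = 0.21), and with TPM scaling it was called higher there.

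The FPKM of the 16 enzymes summed to 1348, 1899 and 2152 in control, 1267, 1349 and 1161 in HFD, and 1317, 1324 and 1177 in HFD with the bacterium. Control replicate 1 thus lay within the range of the diet groups, and control replicates 2 and 3 above it. As a share of all FPKM, the sums were 0.351% to 0.492% in control, 0.332% to 0.387% in HFD and 0.293% to 0.357% in HFD with the bacterium, so control and HFD overlapped.

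**Figure D3:**
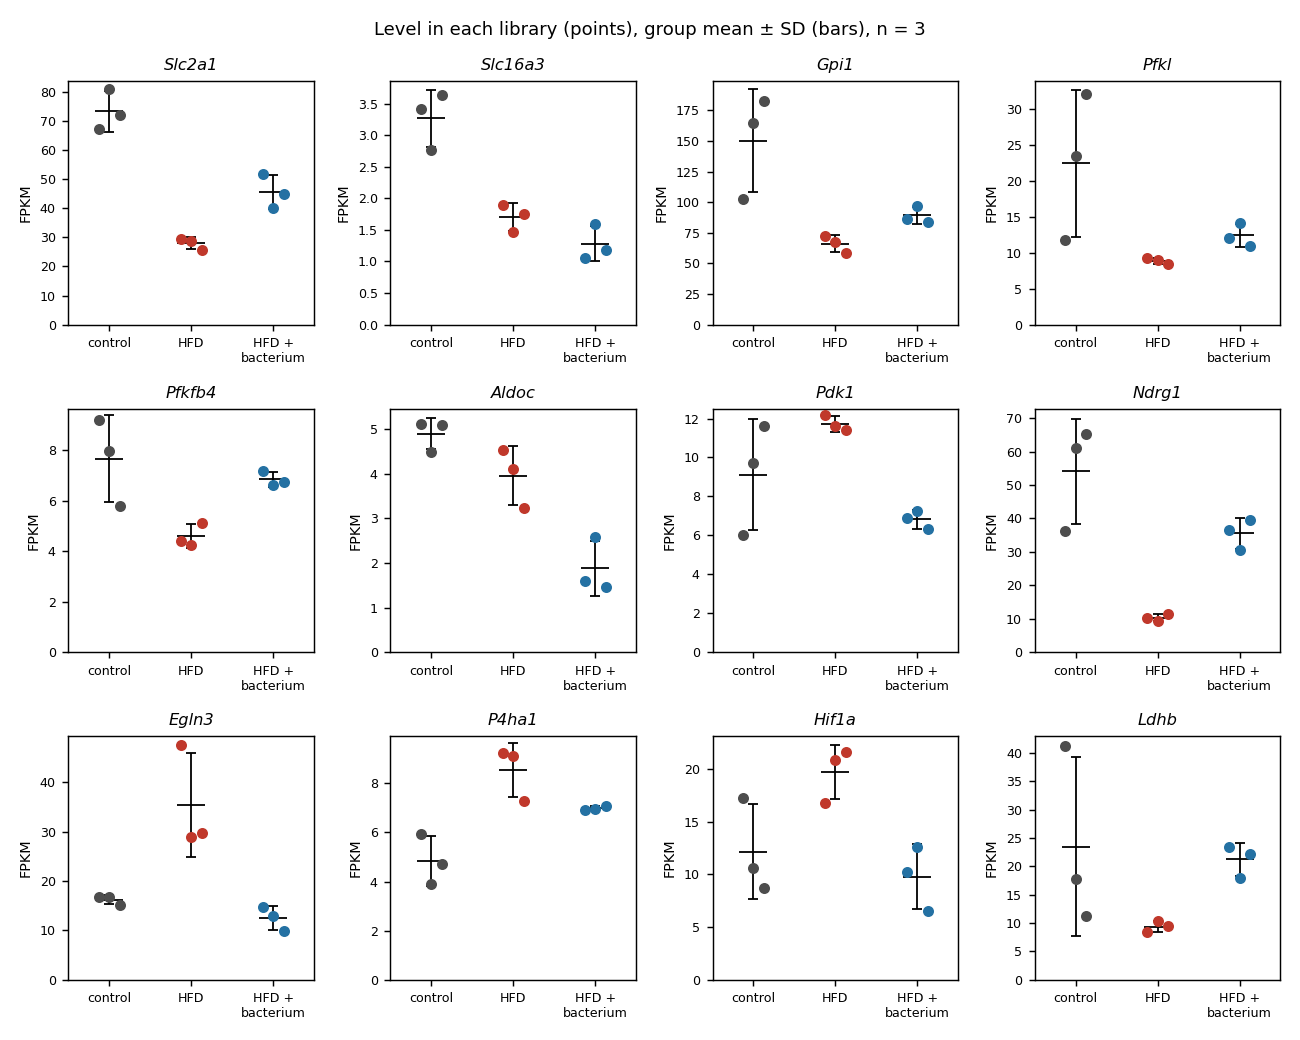
FPKM in each library (points) with the group mean and SD (bars, n = 3) for the 10 genes called in at least 1 comparison and for Hif1a and Ldhb, on linear axes from 0. Slc2a1 falls from 73.4 in control to 27.9 in HFD and stands at 45.6 with the bacterium, and Ndrg1 from 54.1 to 10.3 and 35.5, while Egln3 runs the opposite way at 16.2, 35.4 and 12.6.

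Among the hypoxia genes, Hif1a encodes the oxygen-regulated alpha subunit of HIF-1, whose activity is set mainly by protein stability. Its RNA measured 17.2, 10.6 and 8.68 FPKM in control, 16.8, 20.8 and 21.6 in HFD, and 10.2, 12.6 and 6.50 in HFD with the bacterium. HFD was above the bacterium group in each library and overlapped control only at control replicate 1. It was not called in HFD against control (0.70, SE 0.27, limma adjusted p = 0.11) or with the bacterium against HFD (-0.98, SE 0.27, limma adjusted p = 0.051). The first passed in 1 of 20 settings, without control replicate 1 (0.96, limma adjusted p = 0.023, range 0.023 to 0.26). The second passed in 7 of 20, among them TPM scaling, the fit of only the 2 groups and the omission of control replicate 1, control replicate 3 or replicate 3 of HFD with the bacterium (limma adjusted p from 0.017 to 0.16).

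Egln3 and Egln1 encode HIF prolyl hydroxylases, PHD3 and PHD2, which mark HIF alpha for degradation and are themselves induced by HIF. Egln3 measured 16.7, 16.8 and 15.2 FPKM in control, 47.5, 28.9 and 29.7 in HFD, and 14.7, 13 and 9.94 in HFD with the bacterium. HFD was above all 6 other libraries, with replicate 1 highest, and control was just above the bacterium group. Egln3 rose 2.18-fold in HFD (1.04, SE 0.21, limma adjusted p = 0.0098) and was 2.82-fold lower with the bacterium than in HFD (-1.40, SE 0.21, limma adjusted p = 0.0031). Each call held under 20 settings, and the group with the bacterium was not called against control (-0.36, SE 0.21, limma adjusted p = 0.38). Egln1 ranged from 17.6 to 29.9 FPKM and was not called.

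Ndrg1 had the largest differences of the list in HFD against control and in HFD with the bacterium against HFD. It measured 36.2, 61.1 and 65.1 FPKM in control, 10.1, 9.31 and 11.4 in HFD, and 36.6, 30.5 and 39.6 in HFD with the bacterium. The HFD libraries were below all 6 others by a wide gap, while control replicate 1 fell within the range of the bacterium group. It was 5.26-fold lower in HFD than in control (-2.25, SE 0.22, limma adjusted p = 0.00033) and 3.45-fold higher with the bacterium than in HFD (1.69, SE 0.22, limma adjusted p = 0.0016), and both calls held under 20 settings. Ndrg1 shares near-identical sequence with 1 other gene, of the annotated type antisense. The use of strand in counting is not stated, so reads of the shared sequence may not be told apart. Against control the bacterium group was not called (-0.56, SE 0.22, limma adjusted p = 0.21) unless control replicate 1 was left out (-0.82).

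P4ha1 and P4ha2 encode catalytic subunits of collagen prolyl 4-hydroxylase, which stabilises the collagen triple helix. P4ha1 measured 5.93, 3.90 and 4.72 FPKM in control, 9.22, 9.12 and 7.29 in HFD, and 6.92, 6.97 and 7.07 in HFD with the bacterium. The groups did not overlap, with HFD highest and control lowest. It rose in HFD (0.71, SE 0.15, limma adjusted p = 0.011), a call lost without HFD replicate 1 or HFD replicate 2 (0.0028 to 0.054 over 20 settings). P4ha2 ranged from 0.833 to 1.96 FPKM with HFD below every other library, and was not called (HFD against control -0.39, SE 0.15, limma adjusted p = 0.10).

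Vegfa, the main growth factor for blood vessels and a classical HIF target, measured 22.4, 15.6 and 13.5 FPKM in control, 16.3, 15.2 and 13.1 in HFD, and 19.2, 15.5 and 21.5 in HFD with the bacterium. The 3 groups overlapped and no comparison was called. Bnip3, a mitophagy receptor whose transcript has 3 pseudogene copies, ranged from 7.67 to 14.7 FPKM, and Adm, the vasodilator peptide adrenomedullin, from 2.52 to 9.95, both with all groups overlapping. Ankrd37, a small ankyrin repeat protein induced by hypoxia, ranged from 6.61 to 18.1, with the bacterium group above HFD in each library (0.80, SE 0.27, limma adjusted p = 0.092).

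Several genes of the list encode alternative forms of the same activity, and a ratio within a library does not depend on scaling. Ratios of FPKM were compared for 10 pairs in 3 comparisons, 30 tests in all, with two-sided exact permutation tests of the log2 ratios. With 3 libraries against 3 the smallest p that is possible is 0.1, and the smallest adjusted value was 0.23 (exact permutation, Benjamini-Hochberg), so no ratio could pass. The groups did not overlap for 5 of the 10 pairs in HFD against control, 5 in HFD with the bacterium against HFD and 3 in HFD with the bacterium against control. Single genes did not overlap in 42.1%, 39.0% and 21.7% of all those tested.

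Egln3 to Egln1 stood at 0.560, 0.719 and 0.580 in control, 1.94, 1.33 and 1.33 in HFD, and 0.658, 0.657 and 0.565 in HFD with the bacterium, so Egln3 was the more abundant form in the HFD libraries only. P4ha2 to P4ha1 was 0.295 ± 0.0352 in control, 0.1 ± 0.0121 in HFD and 0.191 ± 0.0343 in HFD with the bacterium, without overlap between the 3 groups.

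Hk2 to Hk1 was above 1 in each diet library, at 1.05, 1.32 and 1.46 in HFD and 1.69, 1.39 and 1.61 with the bacterium, against 1.03, 1 and 0.792 in control. Pfkp to Pfkl was 1.61, 1.70 and 1.47 in HFD, against 1.10, 0.562 and 0.478 in control and 1.08, 0.926 and 0.895 with the bacterium, so the platelet form exceeded the liver form in every HFD library. Ldhb to Ldha was 0.0294, 0.0335 and 0.0323 in HFD and 0.0656, 0.0542 and 0.0819 with the bacterium, while control replicates ran from 0.0229 to 0.166. Aldoc to Aldoa was 0.00569 ± 0.00261 with the bacterium, 0.0133 ± 0.00189 in HFD and 0.0105 ± 0.00377 in control.

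**Figure D4:**
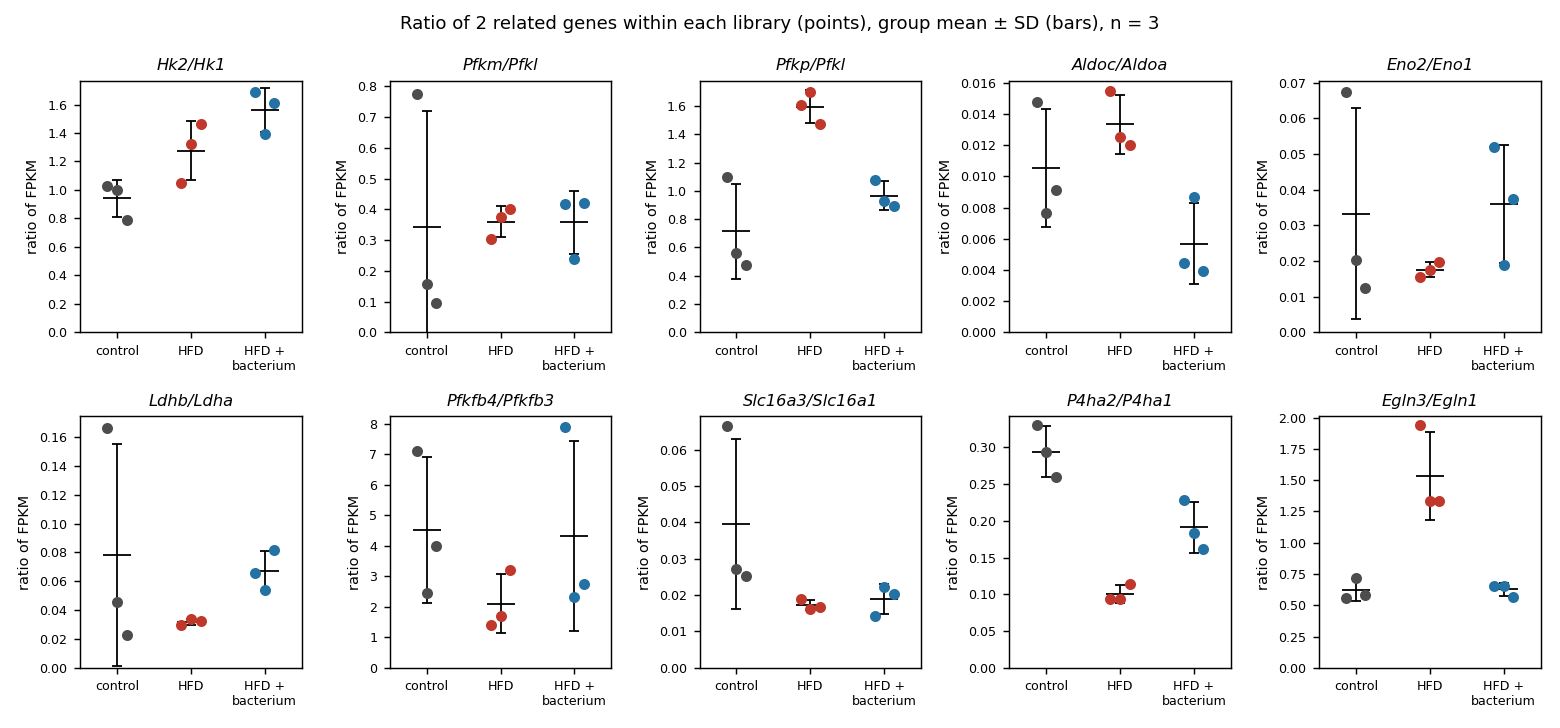
Ratio of FPKM of 2 related genes within each library (points) for 10 pairs, with the group mean and SD (bars, n = 3, drawn down to 0 where the SD exceeds the mean), on linear axes from 0. Egln3 to Egln1 exceeds 1 in the 3 HFD libraries only (1.33 to 1.94), and control replicate 1 is the highest control library for Pfkm to Pfkl (0.777), Eno2 to Eno1 (0.0673) and Ldhb to Ldha (0.166).

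Neighbouring steps were described from 7 further lists of genes that are not among the 31. Their counts stand beside 10.6% of all tested genes called higher and 9.11% lower in HFD against control, and 4.54% higher and 7.60% lower with the bacterium against HFD. Of 30 tested genes of other glycolytic isoforms, gluconeogenesis and glycogen, 3 rose and 5 fell in HFD against control (median -0.38), and 2 rose and 2 fell with the bacterium against HFD (median 0.18). Eno3, the muscle enolase, measured 18.2, 9.10 and 7.26 FPKM in control, 90.9, 94.0 and 98.9 in HFD, and 6.87, 8.04 and 11.1 with the bacterium. HFD was far above the rest (3.03, SE 0.29, limma adjusted p = 0.00031 against control, and -3.33, SE 0.29, limma adjusted p = 0.00023 for the bacterium group against HFD), and in HFD Eno3 was about as abundant as Eno1. Hkdc1, a hexokinase of epithelia, went the other way, at 3.30, 21.7 and 23.9 in control, 0.436, 0.228 and 0.490 in HFD, and 8.52, 11.4 and 12.7 with the bacterium (-3.28, limma adjusted p = 0.0055, and 3.09, limma adjusted p = 0.0092). Ppp1r3b, which targets protein phosphatase 1 to glycogen, was at 5.82 ± 0.662, 19.0 ± 1.92 and 5.61 ± 1.05 FPKM in control, HFD and HFD with the bacterium (1.55, limma adjusted p = 0.00031, and -1.60, limma adjusted p = 0.0003).

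Among 10 tested glucose and monocarboxylate transporters beside Slc2a1 and Slc16a3, 1 fell and 0 rose in HFD (limma, 4 of the 10 at an unadjusted p below 0.05) and 2 rose with the bacterium against HFD. The gene that fell was Slc2a4, the insulin-responsive transporter GLUT4, at 16 ± 4.41, 4.77 ± 0.174 and 10.1 ± 2.98 FPKM in control, HFD and HFD with the bacterium. Slc16a7 (MCT2) was the other that rose with the bacterium against HFD, from 0.783 ± 0.0920 to 1.75 ± 0.201, and both calls of a rise were lost in 10 of 20 settings (limma adjusted p up to 0.11 and 0.13).

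Of 12 genes of pyruvate entry into mitochondria, 1 rose and 2 fell in HFD, and 1 rose and 1 fell with the bacterium against HFD. Pdk4, the pyruvate dehydrogenase kinase of fasting and fat oxidation, measured 13.5, 34.4 and 22.4 FPKM in control, 4.10, 2.87 and 2.91 in HFD, and 35.3, 23.5 and 63.6 with the bacterium, the opposite order of its relative Pdk1. Pdp2, a phosphatase that reverses these kinases, was at 1.92 ± 0.645, 6.91 ± 0.432 and 1.93 ± 0.380. Pdk3, the other gene that fell in HFD, lost its call in 10 of 20 settings.

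In the pentose phosphate pathway 1 of 7 genes fell in HFD and none rose (limma, 2 of 7 at an unadjusted p below 0.05). It was Taldo1, transaldolase, at 207 ± 84.6 against 97.3 ± 6.06 FPKM, whose call was lost in 13 of 20 settings. Of 11 oxygen sensors and HIF subunits, Arnt2 alone was called, at 1.26 ± 0.777, 0.162 ± 0.0688 and 1.25 ± 0.121 FPKM in control, HFD and HFD with the bacterium, with the HFD call lost in 4 of 20 settings and the call with the bacterium in 8. Of 7 partners of collagen prolyl hydroxylation, 0 were called in HFD or with the bacterium against HFD (limma, 1 and 0 at an unadjusted p below 0.05).

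Other hypoxia-inducible genes moved in both directions, with 4 of 36 higher and 8 lower in HFD (median -0.10) and 7 higher and 4 lower with the bacterium against HFD (median 0.02). Higd1a, a mitochondrial protein induced by hypoxia, was at 87.0 ± 33.2, 10.8 ± 1.96 and 52.4 ± 7.97 FPKM in control, HFD and HFD with the bacterium. Stc2, the secreted stanniocalcin 2, was at 4.71 ± 1.19, 0.913 ± 0.0493 and 4.07 ± 0.369, and Car12, a membrane carbonic anhydrase, at 12.9 ± 7.51, 0.792 ± 0.141 and 10.2 ± 1.54. These 3 have the same order of group means as Ndrg1. With the bacterium against control, 0 genes of these 7 lists were called by limma, with 0 to 3 of each list at an unadjusted p below 0.05.

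Markers of cell types and of position moved with the same groups. Macrophage and dendritic cell genes summed to 427 to 642 FPKM in control, 1244 to 1609 in HFD and 476 to 756 with the bacterium, with 9 of 10 higher in HFD than in control. All 9 B and plasma cell genes rose in HFD, with sums of 113 to 191, 907 to 1155 and 203 to 420 in the 3 groups. Posterior Hox genes, which are expressed towards the end of the gut, summed to 1.07 to 34.2, 246 to 268 and 3.53 to 13.1, and more anterior Hoxb genes to 25.6 to 131, 4.64 to 5.51 and 62.8 to 100 FPKM. Cdx2, a homeobox gene of intestinal epithelium, was at 112 ± 34.8, 8.10 ± 1.40 and 68.8 ± 13.3, and Car1, a carbonic anhydrase of colonocytes, at 603, 13019 and 19172 in control, 88.4 ± 31 in HFD and 9200 ± 1303 with the bacterium. HFD libraries thus stand apart in these lists in the same grouping as for Ndrg1, Slc2a1, Egln3 and Eno3, and the part of cell composition or of position along the colon in these results was not tested. Of 8 T and NK cell genes 5 rose in HFD, of 7 fibroblast genes 1 rose, and 0 of 8 endothelial and 0 of 10 smooth muscle genes were called (limma, 2 and 0 at an unadjusted p below 0.05). The smooth muscle median was nonetheless -0.81 in HFD against control and 0.58 with the bacterium against HFD. Smooth muscle sums ran from 1388 to 7122 FPKM in control, 1365 to 1525 in HFD and 1840 to 3342 with the bacterium. Of 10 enteric neuron genes 4 fell in HFD (8 at an unadjusted p below 0.05, median -0.92) and 3 rose with the bacterium against HFD (median 0.91), with sums of 75.4 to 201, 54.9 to 58.1 and 91.6 to 154 FPKM. Of 5 tested glia genes 1 fell and 2 rose in the same comparisons, with sums of 8.79 to 22.7, 8.27 to 8.86 and 13.6 to 20.9. Adipocyte genes summed to 69.6 to 1243, 10.8 to 123 and 102 to 375, with 1 of 8 lower in HFD (median -2.57). Their part in the results on the 31 genes was not tested either. No gene of these lists is at 0 in every library, apart from 1 of 9 skeletal muscle genes.

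Leaving out control replicate 1 raised the number of called genes among the 31 and also over all tested genes, where the called shares went to 25.7%, 20.4% and 6.74% in HFD against control, HFD with the bacterium against HFD and HFD with the bacterium against control. In HFD against control the count was 13 of the 31 (41.9%), the 8 above and Ldha, Aldoa, Eno1 and Ankrd37 lower and Hif1a higher. Among these Aldoa differed by -0.95 (limma adjusted p = 0.0037) and Eno1 by -0.71 (limma adjusted p = 0.0077). With the bacterium against HFD the count was 10 (32.3%), the 5 above and Gpi1, Pfkfb4, Ldhb and Ankrd37 higher and Hif1a lower. With the bacterium against control the count was 11 (35.5%), the 2 above and Aldoa, Pkm, Gpi1, Eno1, Ndrg1, Slc2a1, Pfkl and Pdk1 lower and P4ha1 higher. The smooth muscle and epithelium sums that set this library apart are given above. Control replicate 1 also had a posterior Hox sum of 34.2 FPKM, against 2.69 and 1.07 in control replicates 2 and 3. Its anterior Hoxb sum was 25.6, against 107 and 131. The part of any of these in the counts was not tested.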

How the data were processed

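RNA sequencing libraries of mouse colon were analysed, 3 in each of 3 groups, taken from the treatment label, with replicate numbers from the titles. The authors deposited 1 table of FPKM values, and no read counts were used here. HISAT2 2.0.5 and the build GRCm39 are named in the submitters' processing notes. How fragments were counted, and on which annotation, is not given in the sources used here. Symbols came from GENCODE M21 (52093 of 54491 identifiers matched, and 22310 rows were 0 in every library). Aldoa has 2 identifiers, of which the one with the higher mean was used.

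The filter kept genes that reached 0.5 FPKM in 3 or more libraries. Log2(FPKM + 1) values of all 9 libraries entered a single fit by limma (version 3.58.1, R 4.3.3) with a variance trend and without covariates, and Benjamini-Hochberg adjustment ran over the 17907 genes within each comparison. Because FPKM carries no totals, the precision of single values is unknown beyond the spread of libraries. Ratios within libraries were compared by exact permutation. Near-identical copies were GENCODE M21 transcripts of other genes with at least 95% identity over at least 300 bases (blastn). Promoter sequences are from RefSeq (GRCm38.p6).

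The members and gene lists were chosen with earlier results of these data known. Single-library values are given for members called in at least 1 comparison and for Slc2a1, Hk1, Hk2, Pkm, Ldha, Ldhb, Hif1a and Vegfa, and the other members by range. From each of the 7 pathway lists at most the 3 called genes with the smallest p per comparison are named, and Gapdh and Pdk4 whatever their test. From marker lists at most 3 genes are named. The sums over the 16 enzymes were added after their values were seen. Alternatives were other pseudocounts, filters, scalings, a fit without trend, a replicate block, a fit of 2 groups only and the omission of each library.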

Additional observations from a re-analysis of the deposited data

How the results depend on the processing

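No called difference among the 31 genes changed direction under the 20 alternatives of each comparison. With the replicate number as a block, the calls among all genes were 1985 in HFD against control, 1288 in HFD with the bacterium against HFD and 0 in HFD with the bacterium against control (limma, 2401 genes at an unadjusted p below 0.05), and those among the 31 genes were 6, 4 and 0 (10 at an unadjusted p below 0.05). Deviations of same-numbered libraries from their group means correlated between -0.156 and 0.187, and those of differently numbered libraries between -0.168 and 0.155. With 3 libraries a group, these values cannot decide whether the numbers pair the samples. With only the 2 groups in the fit, HFD with the bacterium against HFD gave 3316 genes and 10 of the 31, and HFD with the bacterium against control gave 10 genes and 0 of the 31 (9 at an unadjusted p below 0.05).

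In HFD with the bacterium against control, calls among all genes numbered 198 and among the 31 genes 2. They became 15 and 0 without a filter, 302 and 4 with a filter at 1 FPKM, 11 and 0 with TPM scaling, 46 and 1 with quantile normalization, and 321 and 0 with mitochondrial and immunoglobulin genes removed (limma, 13, 12 and 9 of the 31 at an unadjusted p below 0.05 in the cases of 0). The cause was not tested. Over the omission of each library in turn, calls ran from 1612 to 4527 genes and from 4 to 13 of the 31 in HFD against control, from 991 to 3603 and from 2 to 10 in HFD with the bacterium against HFD, and from 0 to 1187 and from 0 to 11 in HFD with the bacterium against control.

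Among called genes of the whole table, 53.8% were higher in HFD against control, 78.2% with TPM scaling and 76.5% with mitochondrial and immunoglobulin genes removed. In HFD with the bacterium against HFD these shares were 37.4%, 25.0% and 38.4%, and against control 23.7%, 27.3% and 74.8%. Total depth is unknown, so no limit of detection is given.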

Other observations

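Gapdh, the glycolytic enzyme often used as a reference gene, was listed at 3.90, 2.57 and 3.52 FPKM in control, 2.55, 2.64 and 10.6 in HFD, and 2.27, 1.67 and 2.68 in HFD with the bacterium. HFD replicate 4 stood above the other 8 libraries. Gapdh acts between Tpi1 (103 to 209 FPKM) and Pgk1 (59.2 to 169 FPKM) in the pathway. It has 77 other genes at 95% identity over 300 bases, 74 of them pseudogenes, while the 9 members of the list with pseudogene copies have between 1 and 4. It was not called in any comparison (limma adjusted p = 0.64, 0.29 and 0.62 in HFD against control, HFD with the bacterium against HFD and HFD with the bacterium against control).

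The second identifier with the symbol Aldoa ranged from 0.331 to 2.13 FPKM and was highest in control replicate 1, at 2.13 FPKM, with 1.74 in HFD replicate 1 and 1.16 in replicate 1 of HFD with the bacterium.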
